A study of Mus musculus with 4 samples.

Results

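The acetylcholine receptor genes described here are 10 genes of the mouse, 6 for subunits of neuronal nicotinic receptors (Chrna3, Chrna4, Chrna5, Chrna7, Chrnb2 and Chrnb4) and 4 for muscarinic receptors (Chrm1, Chrm2, Chrm3 and Chrm4). They were chosen by name, as every probe whose symbol in the platform annotation is on this list, which gave 20 probes for 10 of the 19057 named genes on the array. The tissue was cervical spinal cord, taken from NC/Nga males aged 9 weeks. NC/Nga is an inbred strain that is used as a model of dermatitis, and the labels name no transgene and no agent for either group. One group was kept in a specific-pathogen-free room (SPF) and is labelled as having a normal phenotype, and the other was kept in a conventional room and is labelled as having atopic dermatitis. Each group has 2 Illumina BeadChip arrays. Every conventional array is labelled with dermatitis and every SPF array as normal, so housing and skin disease cannot be told apart. The labels do not say whether the arrays of a group are separate animals or pools, and p-values then measure the spread between arrays, which may be technical.

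Acetylcholine acts through both receptor families. Nicotinic receptors are pentamers of subunits around a cation channel, and the subunits present set which receptor is formed: the Chrna4 and Chrnb2 products form the high-affinity nicotine receptor of the brain, the Chrna3 and Chrnb4 products the main receptor of autonomic ganglia, the Chrna5 product joins others as an accessory subunit, and the Chrna7 product forms homopentamers with high calcium permeability. Muscarinic receptors are G protein-coupled, and those encoded by Chrm1 and Chrm3 activate phospholipase C through Gq while those of Chrm2 and Chrm4 inhibit adenylyl cyclase through Gi. In the spinal cord acetylcholine comes from motor neurons and from local cholinergic neurons, whose large C-bouton synapses on motor neurons face muscarinic receptors of the Chrm2 type.

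The 4 arrays were close in their overall signal. Between 44.9% and 46.3% of 45281 probes were above background, defined as a detection p-value under 0.05 against the negative-control beads of the array, and median signals were 113.6 to 119.4 intensity units. The lowest signal called above background was 117.8 to 124.4 units. Genes of the tissue were present, among them Slc17a6 and Gad1 of excitatory and inhibitory neurons, Gfap of astrocytes and Mbp of oligodendrocytes, all above background on 4 arrays. Absence of signal has a limit here: the 2 probes of the pan-neuronal gene Snap25 read 86.3 to 109.9 units and were detected on no array, and those of the glycine transporter gene Slc6a5 read 77.5 to 119.4 and were also detected on none. A gene listed below as not above background is therefore not shown to be silent in the cord. Markers of tissues that adjoin the cord differed between arrays. The summed normalized level of 9 meningeal fibroblast genes was 7791 and 29530 on the SPF arrays and 11383 and 5068 on the conventional arrays. For the 10 tested skeletal muscle genes, of which 9 were lower and 1 higher on conventional arrays, the sums were 9669 and 13578 on SPF arrays and 9926 and 13073 on conventional arrays. Most of each sum came from Pvalb, a gene that neurons also express, which was the higher one (0.19 log2 units). Without Pvalb, left out after its values were seen, the sums were 2904 and 1069 against 1049 and 696.4. Among the 9 lower genes, Ckm was above background on 2 arrays only, and its SPF values were the higher ones. The part of these tissues in the receptor values was not tested.

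Promoter sequences are shown for the 3 members detected by more than 1 probe on all arrays (Chrna4, Chrnb2 and Chrm2) and for a pair of chromosome neighbours that differed in detection (Chrna3 and Chrnb4). They are RefSeq windows of 300 bases on build GRCm38.p6, written 5′ to 3′ on the strand of the gene. The usual window runs from 250 bases before the annotated start to 50 after it. That place was inferred from gene ends, which lay there in 19827 of 32850 matched windows, and was not checked for each window shown. Capitals mark the GC box GGGCGG on either strand. The windows lie at chr2:181039128-181039427 on the minus strand for Chrna4, chr3:89764583-89764882 on the minus strand for Chrnb2, chr6:36387834-36388133 on the plus strand for Chrm2, chr9:55026513-55026812 on the minus strand for Chrna3 and chr9:55048495-55048794 on the minus strand for Chrnb4.
Chrna4: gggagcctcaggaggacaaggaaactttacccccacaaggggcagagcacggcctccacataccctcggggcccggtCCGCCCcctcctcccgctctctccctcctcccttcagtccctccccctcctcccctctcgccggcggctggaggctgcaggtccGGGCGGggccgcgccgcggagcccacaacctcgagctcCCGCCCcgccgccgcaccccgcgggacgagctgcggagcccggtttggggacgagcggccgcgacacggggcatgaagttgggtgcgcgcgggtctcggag
Chrnb2: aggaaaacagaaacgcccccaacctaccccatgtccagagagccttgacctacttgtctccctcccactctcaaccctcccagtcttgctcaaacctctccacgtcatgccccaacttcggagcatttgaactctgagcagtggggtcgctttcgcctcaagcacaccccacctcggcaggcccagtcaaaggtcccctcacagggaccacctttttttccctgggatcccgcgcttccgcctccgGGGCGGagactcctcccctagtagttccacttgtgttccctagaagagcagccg
Chrm2: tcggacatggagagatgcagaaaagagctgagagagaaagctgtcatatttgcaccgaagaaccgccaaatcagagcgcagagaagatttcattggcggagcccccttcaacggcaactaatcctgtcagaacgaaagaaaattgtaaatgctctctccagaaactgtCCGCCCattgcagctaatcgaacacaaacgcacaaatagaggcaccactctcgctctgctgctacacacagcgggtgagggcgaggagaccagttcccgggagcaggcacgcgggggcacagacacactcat
Chrna3: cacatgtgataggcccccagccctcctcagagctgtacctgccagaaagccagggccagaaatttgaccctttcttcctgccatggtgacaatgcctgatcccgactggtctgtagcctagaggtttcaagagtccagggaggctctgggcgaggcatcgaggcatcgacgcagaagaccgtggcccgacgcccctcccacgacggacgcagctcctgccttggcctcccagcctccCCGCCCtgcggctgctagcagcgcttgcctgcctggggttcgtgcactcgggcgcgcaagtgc
Chrnb4: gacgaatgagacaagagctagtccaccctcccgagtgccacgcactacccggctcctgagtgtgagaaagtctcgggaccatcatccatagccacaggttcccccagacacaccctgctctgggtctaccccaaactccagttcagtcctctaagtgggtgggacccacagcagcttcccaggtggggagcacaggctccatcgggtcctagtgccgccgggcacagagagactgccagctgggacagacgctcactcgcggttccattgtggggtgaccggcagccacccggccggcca
Of the members, 9 had an entry in the promoter table, with 10 windows, and Chrm1 had none. The GC box was found in a window of 7 of these 9 genes, against 35.7% of all 32851 windows. A gene was counted if any of its windows matched, and Chrna5 has 2, so gene counts and window shares differ in unit. The GC box was present in 4 of the 5 members detected in the cord and in 3 of the 4 that were not. A match is a description of the letters and not a binding site. Chrna4 held 3 matches, Chrnb2, Chrm2 and Chrna3 held 1 each, and Chrnb4 held 0. The E-box CANNTG, which reads the same class of sites on both strands, was found in 7 of 9 genes and in 72.3% of all windows. The TATA box TATAAA was found in 0 of 9 genes (13.6% of all windows). Parts of the RE1 element bound by the neuronal repressor REST, TTCAGCACC and GGACAGCGC, were found in 0 of 9 genes and in 0.371% and 0.405% of all windows. Matches on both strands were counted, overlaps included. GC content was 74.3% for the window of Chrna4 and 52.7% for that of Chrm2, against a median of 52.7% over all windows. Apart from Chrm2 and the first window of Chrna5 (41.3%), the member windows lay above that median, at 57.3% to 74.3%. The part of GC content in the GC box matches was not tested.

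Of the 10 receptor genes, 5 were detected in the cervical cord, meaning that a probe was above background on at least 2 of the 4 arrays: the nicotinic genes Chrna3, Chrna4 and Chrnb2, and the muscarinic genes Chrm2 and Chrm3. The other 5, Chrna5, Chrna7, Chrnb4, Chrm1 and Chrm4, had no probe above background on any array. Over all named genes the share detected was 60.2%. Of the 20 probes, 7 were above background on all 4 arrays (39.9% of all probes on the array were), 3 on 1 to 3 arrays and 10 on none. The detection rule was met by 9 of the 20 probes, against 46.5% of all probes. With a stricter rule, a detection p under 0.01 on all 4 arrays, Chrna4, Chrnb2 and Chrm2 were left.

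**Figure D1:**
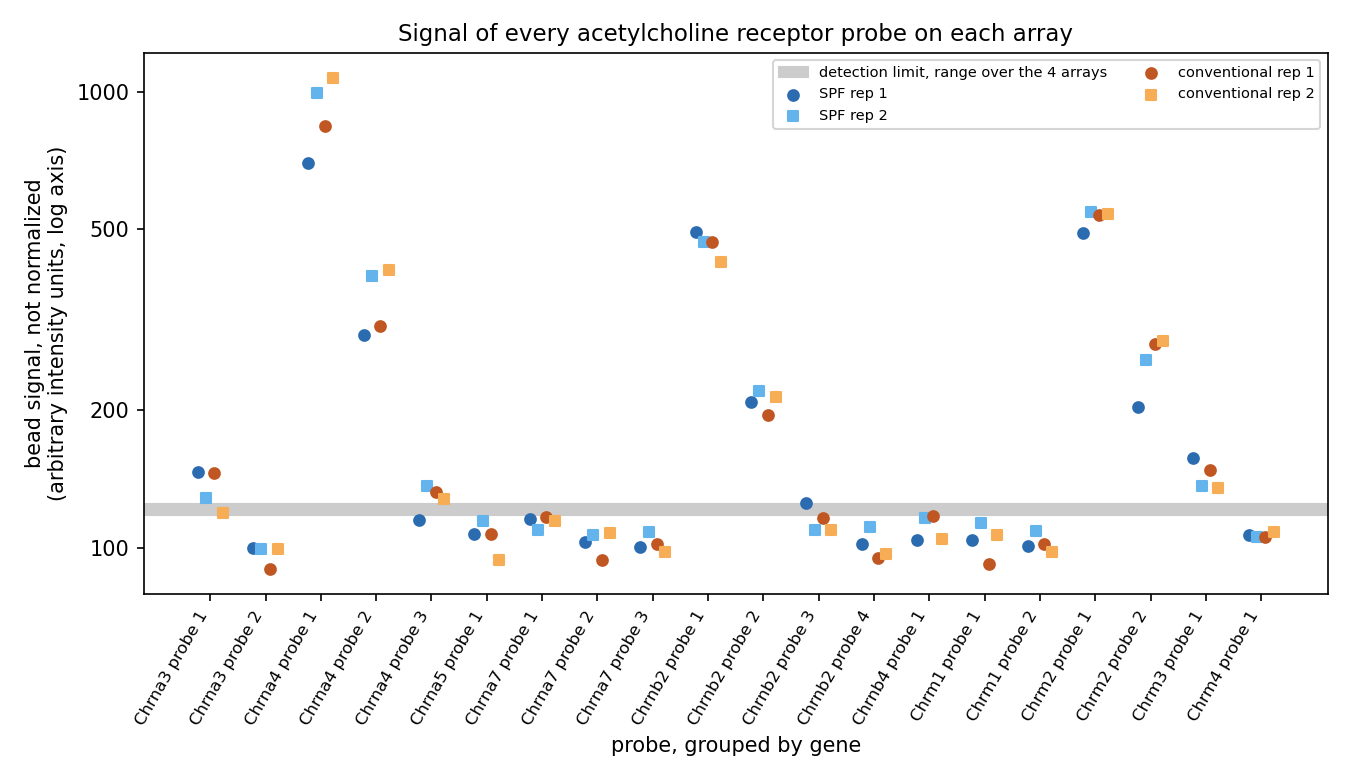
Bead signal before normalization (intensity units, log axis) of the 20 receptor probes, grouped by gene, with 1 point per array and a grey band for the detection limit of 117.8 to 124.4 units. Both brightest probes of Chrna4, Chrnb2 and Chrm2 stand above the band on all 4 arrays, while every probe of Chrna5, Chrna7, Chrnb4, Chrm1 and Chrm4 lies under it.

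Among the nicotinic genes, Chrna4 gave the clearest signals. Its first probe read 697.3 and 990.7 units on the SPF arrays and 840.1 and 1073.0 units on the conventional arrays. The second probe read 291.9 and 394.2 against 306.9 and 405.9 units. In both probes SPF replicate 1 was the lowest array and conventional replicate 2 the highest. The third probe lay near background, at 115.0 and 136.3 against 132.2 and 127.7 units, and was detected on 1 of 2 SPF arrays and on both conventional arrays.

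Chrnb2, whose product pairs with that of Chrna4, has 4 probes, and they did not agree on detection. The first read 493.3 and 468.5 units on SPF arrays and 468.1 and 422.0 units on conventional arrays. The second read 208.3 and 221.0 against 195.6 and 213.6 units, and both were above background on all 4 arrays. The third was detected on SPF replicate 1 alone, where it read 125.4 units. The fourth read 94.7 to 111.2 units and was detected on no array. It is annotated to a GenBank cDNA and not to a RefSeq transcript, as is 1 of the 3 probes of Chrna7. Detection of a receptor gene thus depended on which probe was read.

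Chrna3 lies between Chrna5 and Chrnb4 in the RefSeq gene order of chromosome 9, and these 3 neighbours encode subunits of the ganglionic type of receptor. Of the 3, Chrna3 was detected, by 1 of its 2 probes, at 146.7 and 128.5 units on SPF arrays and at 146.1 and 119.2 units on conventional arrays. The last value had a detection p of 0.05556, so the gene was above background on 1 of 2 conventional arrays. The other Chrna3 probe read 89.8 to 99.9 units and was detected on no array. Chrna5 has 1 probe, which read 107.0 and 114.6 against 107.2 and 94.0 units. Chrnb4 also has 1 probe, at 103.9 and 116.3 against 117.3 and 104.6 units, and its lowest detection p was 0.05235 on conventional replicate 1. Of 7 sensory ganglion genes with a probe, Prdm12 alone passed the detection rule, and Scn10a, Scn11a, Trpv1, Mrgprd, P2rx3 and Avil did not.

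Chrna7 has 3 probes and was above background with none of them. The 12 values lay between 94.0 and 116.5 units, with detection p-values from 0.05876 to 0.82051. The values nearest to background's upper edge were those of 1 probe, which read 115.6 and 109.6 units on SPF arrays and 116.5 and 114.2 units on conventional arrays. The reported comparison between groups left this gene out, since both groups had only a bound.

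Of the muscarinic genes, Chrm2 was detected by both of its probes on all 4 arrays. The first read 490.3 and 543.4 units on SPF arrays and 537.0 and 538.8 units on conventional arrays. The second read 203.7 and 258.3 against 279.1 and 283.4 units, and SPF replicate 1 was the lowest array in both. Chrm3 has 1 probe, which read 157.3 and 136.6 units on SPF arrays and 148.3 and 135.1 units on conventional arrays, with detection p-values of 0.00107 to 0.01282. It stood close to the detection limit, and the groups overlapped. Chrm1 was not above background with either of its probes, whose 8 values ranged from 92.3 to 113.3 units. Chrm4 has 1 probe and read 105.5 to 108.1 units, the smallest spread among the undetected genes.

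The remaining 11 genes of the family, 10 for nicotinic subunits and Chrm5, have 21 probes, of which 17 were detected on no array. Of these genes 2 passed the detection rule, which made 7 of 21 in the whole family. Chrna2, known as a marker of Renshaw cells, the recurrent inhibitory interneurons of the ventral horn, read 115.9 and 145.0 units on SPF arrays and 135.7 and 139.2 units on conventional arrays. Chrnb1, which encodes the beta subunit of the muscle receptor, read 117.3 and 177.2 against 129.9 and 139.8 units with its brighter probe. Both were below the limit on SPF replicate 1 and above it on the other 3 arrays. Neither passed limma's test between groups: Chrna2 differed by 0.31 ± 0.28 log2 units and Chrnb1 by -0.14 ± 0.43, while a further probe of Chrnb1 gave 0.26, and the groups overlapped in each. Chrna1, the alpha subunit gene of the muscle receptor, was at background with all 3 of its probes.

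Conventional and SPF cord were then compared, to ask whether receptor transcripts differ in the cord of mice with dermatitis. Signals were background-corrected and quantile normalized to a log2 scale, and each gene was represented by its detected probe of highest mean. None of the 5 detected members passed limma's test over all features, and each had an adjusted p of 1. Over 14634 features, 0% passed at an adjusted p under 0.05 and 3.03% had an unadjusted p under 0.05, against 0 of 5 members. With 2 arrays against 2, an exact permutation test of a single gene cannot go below p = 0.33 (two-sided). All differences are conventional minus SPF in log2 units, with the standard error of the model and n = 2 arrays per group.

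Chrna4 had the largest difference among the members when each was represented by its brightest probe. With the mean of the detected probes the order turned, to 0.33 for Chrm2 and 0.21 for Chrna4. The log2 level of the brightest Chrna4 probe was 9.20 and 9.80 on the SPF arrays and 9.55 and 9.99 on the conventional arrays, so SPF replicate 2 stood above conventional replicate 1 and the groups overlapped. The difference was 0.27 ± 0.23, a fold of 1.20 with a 95% interval from 0.820 to 1.77. With each probe fitted as a feature of its own, its other detected probes gave 0.16 ± 0.28 and 0.21 ± 0.25. All 3 had the same sign, but they read the same 4 arrays, so this adds no separate support. The third lay near background and was not above it on SPF replicate 1. The value of the brightest probe depended on single arrays: leaving out SPF replicate 1 gave -0.03 and leaving out conventional replicate 2 gave 0.05. Leaving out SPF replicate 2 or conventional replicate 1 gave 0.57 and 0.49.

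Chrnb2 was the steadiest of the tested members across the arrays when each was represented by its brightest probe. Its log2 level was 8.60 and 8.54 on SPF arrays and 8.57 and 8.46 on conventional arrays, a range of 0.146 log2 units. The difference was -0.06 ± 0.15, and the 95% interval of the fold ran from 0.749 to 1.23. A second probe, fitted as its own feature, gave -0.04 ± 0.21. It ranged over 0.264 log2 units, and conventional replicate 2 was its highest array but the lowest of the brightest probe.

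Chrna3 stood at 5.86 and 5.21 log2 units on SPF arrays and at 5.90 and 5.01 on conventional arrays. The higher array of each group was alike and so was the lower one, and the gaps within groups, 0.647 and 0.890, were several times the difference of -0.08 ± 0.36. Its interval reached from 0.526-fold to 1.70-fold. The sign changed to 0.24 without SPF replicate 1 and to 0.37 without conventional replicate 2, while leaving out SPF replicate 2 or conventional replicate 1 gave -0.40 and -0.52.

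Chrm2 stood at 8.60 and 8.82 log2 units on SPF arrays and at 8.80 and 8.88 on conventional arrays with its brighter probe. The groups overlapped by a narrow margin, and the difference was 0.14 ± 0.16, a fold of 1.10 (95% interval 0.851 to 1.42). Its dimmer probe stood at 6.83 and 7.36 against 7.58 and 7.67, so that the lowest conventional value exceeded the highest SPF value. In the fit with each probe as a feature, that probe differed by 0.53 ± 0.23 (adjusted p = 1 in limma's test, after rounding) and the interval ran from -0.01 to 1.06. Among the 9 detected probes of members it was the only one whose groups did not overlap, and over 21065 probes such a separation was seen in 16.4% with conventional higher and in 14.5% with conventional lower. With the mean of both probes the difference of the gene was 0.33 ± 0.18. Without SPF replicate 1 the difference of the brighter probe was 0.02, and without SPF replicate 2 it was 0.25.

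Chrm3 stood at 6.08 and 5.46 log2 units on SPF arrays and at 5.95 and 5.55 on conventional arrays. Its difference was -0.02 ± 0.28, and the 95% interval reached from 0.619-fold to 1.57-fold. It turned to 0.29 without SPF replicate 1 and to 0.18 without conventional replicate 2, and was -0.33 and -0.22 without SPF replicate 2 and conventional replicate 1. In Chrna3 and Chrm3 alike, the SPF array labelled replicate 1 was above the one labelled replicate 2, and the same held for the conventional arrays. In the brighter probes of Chrna4 and Chrm2 the array labelled replicate 2 was the higher of each group.

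**Figure D2:**
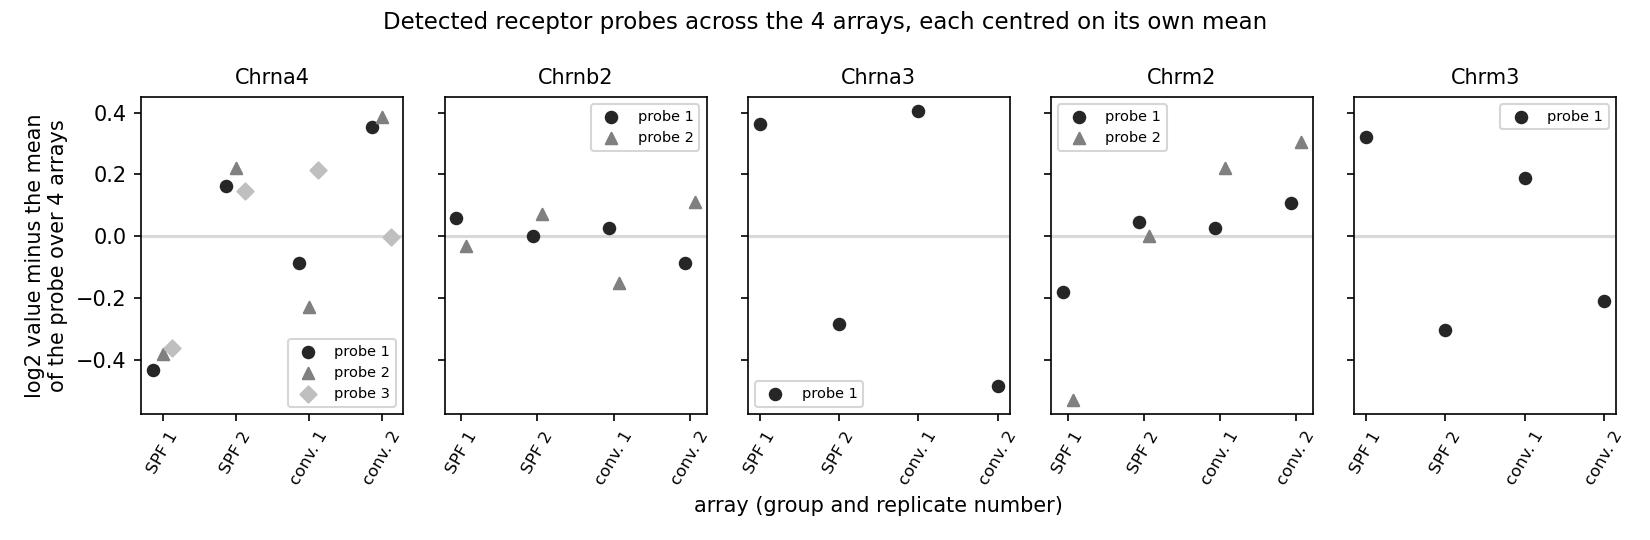
Normalized log2 value of each detected receptor probe minus its mean over the 4 arrays (vertical axis), by array (horizontal axis), with a marker shape for each probe of a gene. Chrna3 and Chrm3 are high on replicate 1 and low on replicate 2 of both groups, Chrna4 is lowest on SPF replicate 1 with all 3 probes, and the brighter probe of Chrnb2 stays within 0.146 log2 units.

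Across the 5 tested members, 2 were higher and 3 lower in conventional cord, where 49.9% of all features were higher. The median difference was -0.02 for the members and -0.0003 over all features. In 0 of 5 did the groups separate, while over all features they separated in 15.6% with conventional higher and in 15.1% with conventional lower. In 4 of 5 members, Chrm2 being the exception, the gap between the 2 arrays of each group was larger than the difference between groups, which held for 48.3% of all features. The members that passed the detection filter are not all members, and the other 5 were outside this comparison.

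**Figure D3:**
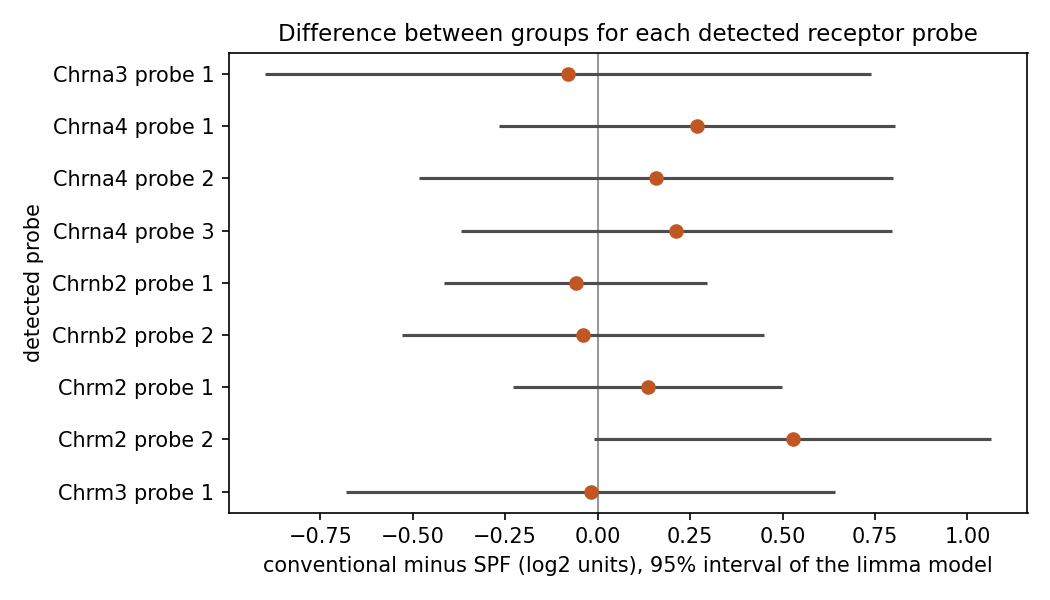
Conventional minus SPF difference (log2 units, horizontal axis) for each of the 9 detected receptor probes, with points at the estimate and lines for the 95% interval of the limma model in which each probe is a feature. All 9 intervals include 0, and the dimmer Chrm2 probe, at 0.53 with an interval from -0.01 to 1.06, is the farthest from it.

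On the ligand side of the pathway no gene passed limma's test (adjusted p = 1 for each), but several differences were larger than those of the brightest receptor probes. The dimmer Chrm2 probe, at 0.53 as its own feature, was exceeded by Slc18a3 and Slc5a7 alone. Of 10 genes for acetylcholine synthesis, transport and breakdown, 8 were tested, 6 were higher and 2 lower, and the median difference was 0.19. Slc18a3, which encodes the transporter that fills synaptic vesicles with acetylcholine, stood at 8.09 and 8.47 log2 units on SPF arrays and at 8.67 and 9.30 on conventional arrays (0.70 ± 0.24). Slc5a7, the choline uptake transporter gene, stood at 7.16 and 7.83 against 8.31 and 8.09 (0.71 ± 0.25). In both genes the groups did not overlap, with conventional higher, which held for 15.6% of all features. They also did not overlap in Prima1, named after its values were seen, whose product anchors acetylcholinesterase in the membrane. Prima1 was lower on conventional arrays (-0.41 ± 0.19), a separation seen in 15.1% of all features. Chat, which encodes the synthesizing enzyme, differed by 0.45 ± 0.24 and Ache, which encodes the degrading enzyme, by 0.11 ± 0.17, and both overlapped. The differences between these genes and the receptors were not tested.

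Proteins that assemble or modulate nicotinic receptors were tested through 8 of 10 genes, of which 6 were higher and 2 lower, with a median of 0.14 and none past the test. Tmem35a, which encodes the chaperone NACHO needed for assembly of several neuronal nicotinic receptors, stood at 8.29 and 8.77 log2 units on SPF arrays and at 9.28 and 8.80 on conventional arrays (0.51 ± 0.23). Psca, a member of the Ly6 family, differed by 0.36 ± 0.20 and Lypd6, a further member, by 0.26 ± 0.22. The groups did not overlap in 2 of the 8 genes, Tmem35a and Psca, with conventional higher, against 15.6% of all features. In Tmem35a the margin was narrow. Psca lay near background, at 5.07 to 5.52 log2 units, and was detected on 3 arrays.

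Downstream of the muscarinic receptors, 10 of 17 G protein and effector genes were tested, with 6 higher, 4 lower and a median of 0.05. Rgs4, which encodes a protein that speeds G protein inactivation, differed by 0.24 ± 0.12, Gnai1, an inhibitory G protein gene, by -0.23 ± 0.16 and Gna11, a Gq family gene, by -0.16 ± 0.16. Of 9 genes for receptor desensitization and G protein shut-off, 7 were tested, with 4 higher, 3 lower and a median of 0.03. Grk6, a receptor kinase gene, differed by -0.32 ± 0.23, Rgs2 by 0.31 ± 0.25 and Grk5 by -0.10 ± 0.21. In neither list did a gene pass. The groups did not overlap in 3 of the 10 effector genes, 2 of them higher and 1 lower, and in 0 of the 7 desensitization genes, against 15.6% of all features higher and 15.1% lower.

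**Figure D4:**
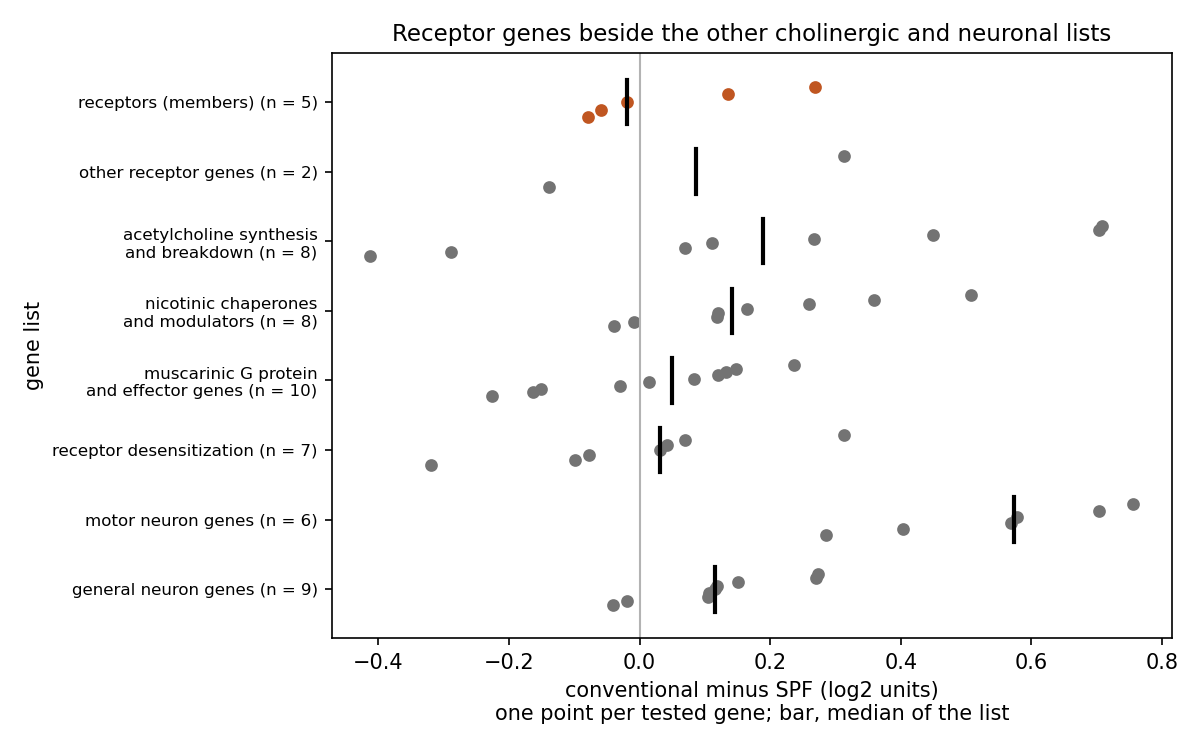
Conventional minus SPF difference (log2 units, horizontal axis) for each tested gene of the receptor, pathway and neuron lists (vertical axis), with a bar at the median of each list. The 5 receptor genes lie between -0.08 and 0.27 around a median of -0.02, and the 6 motor neuron genes lie between 0.28 and 0.76 around a median of 0.57.

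Of 10 motor neuron genes, 6 were tested and 0 passed limma's test. In these 6 the conventional values lay above the SPF values without overlap, against 15.6% of all features, and the median difference was 0.57 against -0.0003 over all features. An unadjusted p under 0.05 was found for 4 of the 6, against 3.03% of all features. Isl2, among these 4, was detected on 2 arrays only. It stood at 4.73 and 4.63 log2 units on SPF arrays and at 5.07 and 5.42 on conventional arrays. It thus passed the filter through the group where it was higher, and its separation adds no support. The list was chosen with earlier results of these data known, so these shares are a description and not a test. The summed normalized level of the 6 genes was 5076 and 5332 on SPF arrays and 6691 and 7363 on conventional arrays. Calcb differed by 0.76 ± 0.27, Isl1 by 0.70 ± 0.31 and Prph by 0.58 ± 0.21, while the listed genes Mnx1 and Nefl were at background on all arrays. Whether these values came from motor neurons or from other neurons was not tested. Of 11 general neuron genes, 9 were tested, 7 were higher and 2 lower, with a median of 0.11 and summed levels of 62535 and 68671 on SPF arrays against 67281 and 72696 on conventional arrays. Whether the neuron content of a sample took part in the values of Chrna4 and Chrm2 was not tested. In whole tissue, fewer cells of a type and less RNA per cell cannot be told apart.

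With each member represented by its brightest probe, Chrna4 had the widest range over the arrays among those detected on all 4, and 111 other tested genes of the lists were ranked by how closely they followed it. The measure was the root mean square difference of log2 values, each gene centred on its own mean over the 4 arrays. Rgs2 was closest, at 0.0770, followed by Lypd6, at 0.0902, and Chat, at 0.0934. Relative to their means, Chrna4 stood at -0.43, 0.16, -0.09 and 0.35 and Chat at -0.55, 0.10, 0.03 and 0.42, in the order SPF replicates 1 and 2 and conventional replicates 1 and 2. All share SPF replicate 1 as their lowest array and conventional replicate 2 as their highest. Likeness over 4 arrays is weak as a description, since 114 of 14634 features were at least as close to Chrna4 as Rgs2 was.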

How the data were processed

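Total RNA of cervical cord was extracted with TRIsure and labelled as biotinylated cRNA with an Illumina TotalPrep kit, per the labels' protocols. Per the file headers, the deposited signals are non-normalized intensity values, which lie on a linear scale, each with a detection p-value. The authors' value table holds intensity values they had normalized, with medians of 216.5 to 216.6 and a transformation that stays unknown, and was used as an alternative. Its columns rank probes as the signals do. The submitters' processing notes name lumi. The sources used here do not give its version, the scanner software or a build. No column belonged to other samples.

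Signals were processed by the neqc function (limma 3.58.1 under R 4.3.3) with an offset of 16 on a log2 scale and negative controls inferred from the detection p-values. Probes with a detection p under 0.05 on at least 2 arrays were kept, and a gene was its kept probe of highest mean, which gave 14634 features. The linear model was fitted with lmFit and moderated with eBayes, with a mean-variance trend. Tests were two-sided, and p-values were adjusted by Benjamini and Hochberg's method over the whole table. The fit was also run on simulated data, and the outcome is not given here. Of 45281 probes, 34885 carry 1 gene symbol, 18 several and 10378 none, and 34807 probes were matched to RefSeq by gene number, with 0 symbols changed. Precision is limited by the number of arrays. Groups and replicate numbers came from the titles.

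The members and all lists were chosen with earlier results of these data known. Named genes are all probes of the members, the 3 tested genes of largest absolute difference in each pathway and marker list, Chat, Slc18a3, Slc5a7, Ache, and the 3 closest to Chrna4. Prima1 and Pvalb were named after their values were seen. Snap25, Slc6a5, Mnx1 and other undetected markers were named after their values were seen.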

Additional observations from a re-analysis of the deposited data

How the results depend on the processing

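Under 17 alternatives (background correction, normalization, the authors' table, filters, probe rules, variance models, a replicate block and each array left out), 0 members passed limma's test. The lowest adjusted p of a member was 0.588, against 1 in the reported fit. The number of members in the comparison was 10 with no filter, by construction, and 3 with a detection p under 0.01 on all 4 arrays. The groups separated with conventional higher for 1 member, Chrm2, after scaling to the 75th percentile, with the mean of its probes and with each probe as a feature, where the same held for 17.1%, 16.1% and 16.4% of all features. They separated with conventional lower for 1 member, Chrm1 with no filter, where it was not above background, and Chrnb2 with the mean of its probes, against 15.8% and 14.5% of all features. With the mean of probes Chrm2 differed by 0.33, against 0.14 as reported. The median difference of the members, -0.02, was 0.14 with the stricter detection rule and with each probe as a feature, where fewer genes or more probes entered. It ranged from -0.12 to 0.095 with 1 array left out. Over the same 4 fits Chrna3 ranged from -0.52 to 0.37, Chrna4 from -0.029 to 0.57, Chrm3 from -0.33 to 0.29, Chrnb2 from -0.12 to -0.0015 and Chrm2 from 0.02 to 0.25, so Chrna3 and Chrm3 changed sign without SPF replicate 1 (0.24 and 0.29) and without conventional replicate 2 (0.37 and 0.18), and Chrna4 without SPF replicate 1. Under the other 13 alternatives these 5 genes kept their sign wherever they were tested.

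With the replicate number as a block, 5 of 14634 features passed, none of them a member, against 0 without it, and Chrna4 had an adjusted p of 0.588 (0.27 ± 0.10). With 1 array left out, between 0 and 2 features passed. The replicate 1 minus replicate 2 differences of the groups had a correlation of 0.198 over features, and nothing in the labels says that equal numbers mark a shared animal or batch. The causes of these changes were not tested.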

Other observations

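Marker lists of other cell types differed in their medians, given here as conventional minus SPF in log2 units. The lists nearest to 0 were those of inhibitory neurons at -0.01 (Gad1 at -0.15, Gad2 at 0.07 and Lhx1 at 0.06) and astrocytes at 0.03 (S100b at -0.24, Slc1a2 at 0.20 and Gfap at 0.16). Excitatory neuron genes had a median of -0.21, with Tlx3 at -0.50, Gria1 at -0.21 and Slc17a6 at 0.07. General neuron genes included Elavl4 at 0.27, Gap43 at 0.27 and Map2 at 0.15. Of the autonomic list, Npy and Th were tested and both stood at 0.19, while Dbh, Hand2 and Gata3 did not pass the detection rule. Npy and Th are therefore not read as a measure of autonomic neurons. The sensory gene Prdm12 also stood at 0.19, but near background and detected on 3 arrays. Oligodendrocyte genes had a median of -0.16, with Opalin at -0.92, Aspa at -0.20 and Mog at -0.19. Microglia genes had a median of -0.29, with Tyrobp at -0.68, Trem2 at -0.44 and Csf1r at -0.31. Of the 7 tested, 6 were lower and 1, P2ry12, was higher (0.17), and Tmem119 stood at -0.09. The groups did not overlap in 2 of the 7, both lower, against 15.1% of all features, and they overlapped in Trem2 and Csf1r. The medians farthest from 0 were those of meningeal fibroblasts at -0.99 (Slc13a4 at -1.83, Igf2 at -1.44 and Ogn at -1.27), skeletal muscle at -1.01 (Tnnc2 at -1.51, Atp2a1 at -1.32 and Tnni2 at -1.06) and red blood cells at -1.05 (Hba-a1 at -1.21, Hbb-bt at -1.09 and Hbb-bs at -1.05). In Slc13a4, Igf2 and Ogn the groups overlapped, with standard errors of 1.25, 0.70 and 1.14. The groups separated in 2 of 9 meningeal, 6 of 10 muscle and 4 of 5 red blood cell genes. In each of these conventional was lower, against 15.1% of all features. Slc22a8 of the meningeal list and Ckm of the muscle list were detected on 2 arrays only. Slc22a8 stood at 5.71 and 6.32 log2 units on SPF arrays against 4.79 and 4.78 on conventional arrays. Ckm stood at 6.35 and 5.25 against 4.80 and 4.78. Both thus passed the filter through the group where they were higher, and their direction adds no support. None of these genes passed limma's test over all features, and the lowest adjusted p among them was 0.476, for Opalin.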
